A study of Mus musculus with 4 samples.

Results

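RNA of 9 cyclins was compared between 4T1 cells with a high and a low mitochondrial membrane potential (MMP). The genes were *Ccnd1*, *Ccnd2*, *Ccnd3*, *Ccne1*, *Ccne2*, *Ccna2*, *Ccnf*, *Ccnb1* and *Ccnb2*, the cyclins that act in turn from G1 to mitosis. They were chosen by name, with earlier results of these data known, and made up 9 of the 20197 genes measured. Counts and ranks of cyclins set beside all genes below are therefore a description. 4T1 is a mouse mammary tumor line, labelled as wild type (WT) in both groups, and the labels give the same medium for all libraries and no agent other than the dye. They were stained with 20 nM MitoSpy Red, a dye that accumulates in mitochondria with a high MMP, and the 5% brightest and 5% dimmest cells were sorted as high MMP and low MMP. Each group had 2 libraries, each made from 200 ng of RNA from 100000 sorted cells, and the labels do not say whether same-numbered libraries came from the same culture or sort. The study's figure legend counts its replicates as independent experiments or tumors, with n = 2 for this comparison. The p-values below measure only the spread between these libraries. A single cell line grown in culture is the whole model.

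Cyclins are the regulatory subunits that switch on cyclin-dependent kinases, and most of them are made in one phase of the cell cycle and destroyed in the next. D-type cyclins work with CDK4 and CDK6 in G1, E-type cyclins with CDK2 at the entry into S phase, cyclin A2 with CDK2 and CDK1 through S phase and G2, and B-type cyclins with CDK1 in mitosis. Cyclin F activates no kinase and serves as the substrate receptor of an SCF ubiquitin ligase that peaks in G2. The comparison asked whether the RNA of these phases was balanced differently in high and low MMP cells. In bulk RNA, more cells in a phase and more RNA per cell in that phase cannot be told apart.

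The libraries held 22591970 to 26395015 reads on genes. Values are given as normalized reads (reads of a gene after each library was scaled to a total of 20000000), and each difference is that of high from low MMP cells in log2(value + 1), positive where high MMP cells had more. Replicates differed by more than sampling noise, with a chi-square per gene of 48.4 between the high MMP and 10.1 between the low MMP libraries. All 9 mammary epithelial markers had values, summing to 55604 to 74319 normalized reads per library. Of the markers of other cell types, 4 of 10 leukocyte, 2 of 5 endothelial and 3 of 5 fibroblast genes had values. The leukocyte markers summed to 72.0 and 151 in high and 158 and 109 in low MMP libraries, nearly all of it *Cd68*, while the pan-leukocyte gene *Ptprc* was at 1.77 or less, and the endothelial markers summed to 1.74 to 6.20. The sum of the fibroblast markers was lower in high MMP cells, at 334 and 374 against 548 and 604, of which *Pdgfra* made up 319 and 363 against 536 and 589. *Pdgfrb* was also lower, at 6.06 and 7.53 against 10.5 and 9.74. *Dcn* overlapped, at 9.09 and 3.35 against 1.74 and 5.31, and *Col3a1* and *Lum* had no values. The part of other cell types in the results was not tested. Genes of handling stress summed to 38952 in high MMP 1 and 35322 in low MMP 2, but to 27331 in high MMP 2 and 20151 in low MMP 1.

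*Ccnb1*, *Ccnf* and *Ccne2* differed most between the groups. *Ccnb1*, which drives entry into mitosis, and *Ccnf* were 1.99-fold and 1.95-fold higher in high MMP cells, whereas *Ccne2*, which acts at the start of S phase, was 1.88-fold higher in low MMP cells. *Ccna2* was 1.25-fold higher and *Ccnd1* 1.18-fold higher in high MMP cells. *Ccnb2*, *Ccnd2* and *Ccnd3* were within 10% of equal. No cyclin passed an adjusted p of 0.05 in limma over all genes, where the share of genes called was 0% (0 of 20197, of which 2011 had an unadjusted p under 0.05). At an unadjusted limma p under 0.05, 3 cyclins were higher (*Ccna2*, *Ccnf* and *Ccnb1*) and 1 lower (*Ccne2*) in high MMP cells, against 3.95% and 6.01% of all genes. Values of the groups did not overlap for 4 cyclins that were higher and 3 that were lower in high MMP cells, where 13.5% and 24.5% of all genes separated in these directions, and 14.9% and 22.7% of the 9999 genes averaging 100 or more, which include all 9 cyclins. The median difference of the 9 was 0.06, and that of all genes was -0.04. The call depended on the model: edgeR's quasi-likelihood test on whole reads called 0 cyclins with no block (0 genes, though 1423 had an unadjusted p under 0.05) but 3 with the replicate number as a block (background 0.525% of genes, 0.312% higher and 0.213% lower), and DESeq2 called the same 3 with no block (background 0.954%, 0.663% higher and 0.291% lower). They were *Ccnf* and *Ccnb1*, higher, and *Ccne2*, lower in high MMP cells. With 1 library left out, the limma differences were 0.93 to 1.05 for *Ccnb1*, 0.81 to 1.11 for *Ccnf* and -0.99 to -0.83 for *Ccne2*. The DESeq2 calls of *Ccne2* and *Ccnf* depended on which library was left out. With the replicate numbers crossed, a block chosen after seeing the data, edgeR again called 3 cyclins, where 3.63% of genes were called (1.74% higher, 1.89% lower).

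**Figure D1:**
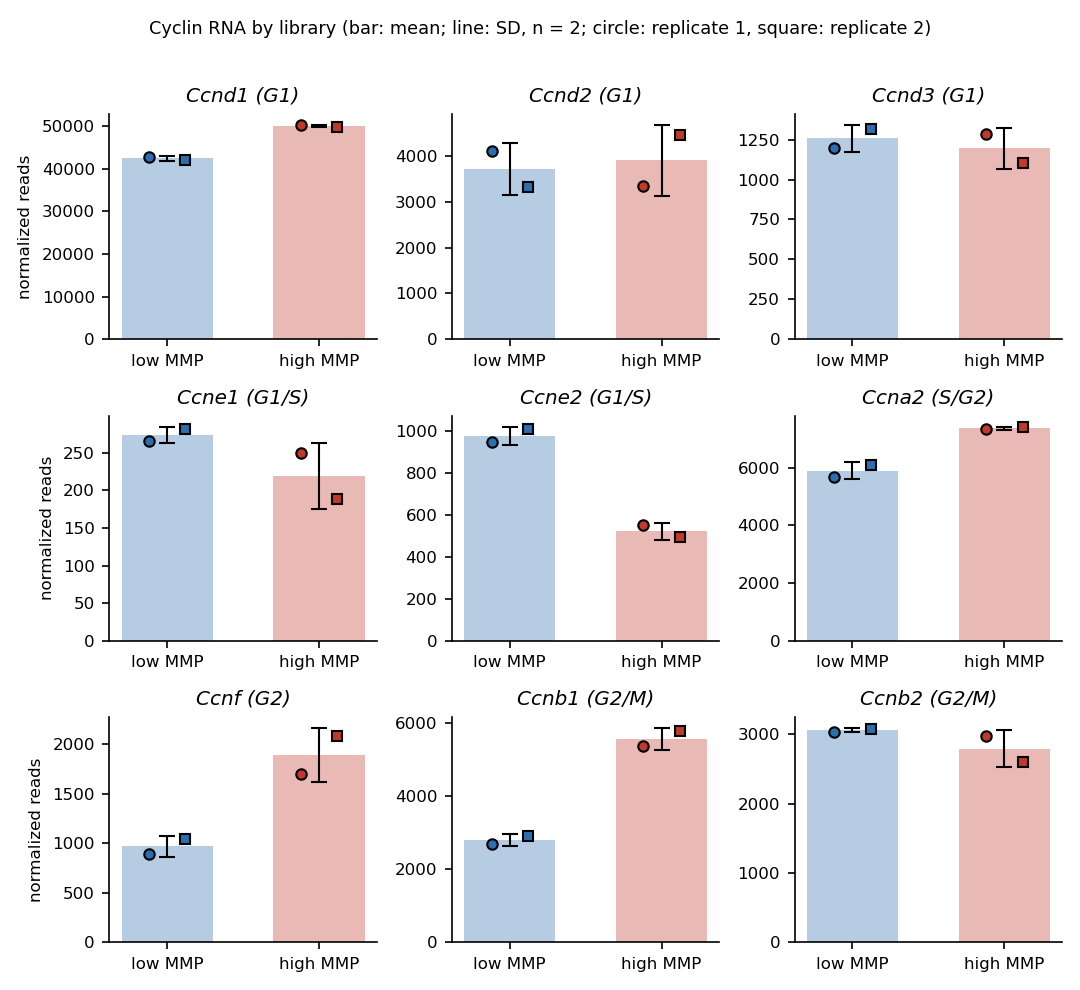
Normalized reads of each cyclin (vertical axes, starting at 0) in low MMP (blue) and high MMP (red) cells. Bars give the mean and black lines the SD of 2 libraries, and circles and squares are replicates 1 and 2; *Ccnb1* was at 5351 and 5764 in high and at 2675 and 2914 in low MMP libraries, while *Ccnb2* was at 2605 to 3081 in all of them.

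The D-type cyclins, which relay growth signals to the RB protein in G1, gave 1 member that separated the groups. Over all genes, 13.5% separated as higher and 24.5% as lower in high MMP cells. *Ccnd1* (ENSMUSG00000070348, GRCm38 chromosome 7, 144929931 to 144939925, minus strand) had 50151 and 49815 normalized reads in high MMP 1 and 2, and 42796 and 41982 in low MMP 1 and 2. Both high MMP libraries were above both low ones, and each pair of replicates lay close together. The means were 49983 ± 237 and 42389 ± 575 (SD, n = 2 each), a difference of 0.24 (95% interval -0.16 to 0.64, limma adjusted p 0.711). limma moderates the variance of each gene toward that of genes with a similar mean, and its SE of 0.15 for *Ccnd1* was wider than the spread of these replicates.

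*Ccnd2* (ENSMUSG00000000184, chromosome 6, 127125162 to 127152193, minus strand) was at 3351 and 4447 normalized reads in high MMP 1 and 2, and at 4113 and 3319 in low MMP 1 and 2. The groups overlapped, and the replicates of each group differed by more than the group means. Its difference of 0.06 (95% interval -0.46 to 0.58, limma adjusted p 0.971) came from -0.30 between the replicates numbered 1 and 0.42 between those numbered 2. *Ccnd3* (ENSMUSG00000034165, chromosome 17, 47505051 to 47599691, plus strand) had 1287 and 1105 in the high and 1199 and 1317 in the low MMP libraries, with a difference of -0.08 (95% interval -0.39 to 0.24, limma adjusted p 0.917). Exons of *Ccnd1* and *Ccnd3* overlap, on the other strand, those of *LTO1* (167 to 230.2 normalized reads) and *Bysl* (1563 to 1771). The libraries with less *Ccnd2* and more *Ccnd3*, high MMP 1 and low MMP 2, were also those with the higher sums of handling stress genes, and the part of that in these values was not tested.

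Of the E-type cyclins, which activate CDK2 for the start of DNA replication, *Ccne2* passed an unadjusted limma p of 0.05 and *Ccne1* did not. *Ccne2* (ENSMUSG00000028212, chromosome 4, 11191351 to 11204779, plus strand) had 550.1 and 493 normalized reads in the high and 948 and 1009 in the low MMP libraries. The groups were well apart, with a difference of -0.91 (SE 0.10, 95% interval -1.17 to -0.64). It had an adjusted p of 0.472 in limma, 0.000211 in DESeq2 and 0.00148 in edgeR with the replicate block. Exons of *Ccne2* overlap those of *Ints8* on the other strand in the annotation, and although the library kit keeps strand, whether the counting used it is not stated. *Ints8* was at 1901 and 1736 in high and 1778 and 1670 in low MMP libraries.

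*Ccne1* (ENSMUSG00000002068, chromosome 7, 38097984 to 38107534, minus strand) had 250.05 and 188 normalized reads in the high and 266 and 282 in the low MMP libraries. Both high MMP libraries were below both low ones, though the first by little. The difference was -0.33 (SE 0.17, 95% interval -0.80 to 0.14, limma adjusted p 0.664), and without high MMP replicate 2 it was -0.13. Within a library, *Ccne2* had 2.20 and 2.62 times the reads of *Ccne1* in high MMP cells, and 3.57 and 3.58 times in low MMP cells. This ratio follows from the values of the single genes, with the larger difference in *Ccne2*, and is no further result. Its exact permutation p was 0.333, the smallest possible for 2 against 2 libraries.

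*Ccna2* (ENSMUSG00000027715, chromosome 3, 36564865 to 36572150, minus strand), the cyclin of S phase and G2, was at 7321 and 7406 normalized reads in high MMP cells and at 5685 and 6095 in low MMP cells. The groups did not overlap. The means of 7364 ± 60.0 and 5890 ± 290.1 (SD, n = 2 each) differed by 0.32 (SE 0.09, 95% interval 0.08 to 0.57, limma adjusted p 0.472), and *Ccna2* was called by neither edgeR nor DESeq2 (adjusted p 0.999 with the replicate block and 0.415). Exons of *Ccna2* overlap those of *Exosc9* on the other strand, which was at 1454 to 1574 in all libraries.

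*Ccnf* (ENSMUSG00000072082, chromosome 17, 24222198 to 24251484, minus strand) had 1697 and 2081 normalized reads in the high and 895 and 1042 in the low MMP libraries. The lowest high MMP library was well above the highest low MMP library, and the difference was 0.96 (SE 0.14, 95% interval 0.57 to 1.35). The limma adjusted p was 0.472, that of edgeR with the replicate block 0.000179 and that of DESeq2 3.22e-06.

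The B-type cyclins are the partners of CDK1 in mitosis, and only *Ccnb1* was higher in high MMP cells. *Ccnb1* (ENSMUSG00000041431, chromosome 13, 100778650 to 100786570, minus strand) had 5351 and 5764 normalized reads in the high and 2675 and 2914 in the low MMP libraries. The groups were well apart, at 5558 ± 292 against 2795 ± 169 (SD, n = 2 each), a difference of 0.99 (SE 0.09, 95% interval 0.74 to 1.25). Adjusted p-values were 0.472 in limma, 0.000319 in edgeR with the replicate block and 1.75e-09 in DESeq2. By size of difference *Ccnb1* stood at place 23 of those 9999 genes, *Ccnf* at 28 and *Ccne2* at 39.

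*Ccnb2* (ENSMUSG00000032218, chromosome 9, 70407692 to 70421547, minus strand) had 2982 and 2605 normalized reads in high MMP cells and 3039 and 3081 in low MMP cells. The high MMP libraries were both below the low ones, the first only just. The difference was -0.13 (SE 0.10, 95% interval -0.40 to 0.14, limma adjusted p 0.763), and the interval lies below the estimate for *Ccnb1*. Within a library, *Ccnb1* had 1.79 and 2.21 times the reads of *Ccnb2* in high MMP cells and 0.880 and 0.946 times in low MMP cells. The log2 ratio differed by 1.13 between the groups, and since *Ccnb1* was higher and *Ccnb2* lower without overlap, the ratio had to separate them.

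Reads of *Ccnb1* could also match its pseudogenes, of which 5 annotated ones were at least 90% identical to its transcripts over at least 300 bases. The 3 with values, *Ccnb1-ps*, *Gm12856* and *Gm4870*, together had 0.577% to 0.697% of the *Ccnb1* reads in each library. With these added the difference was again 0.99. How reads matching several genes were handled is not stated.

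**Figure D2:**
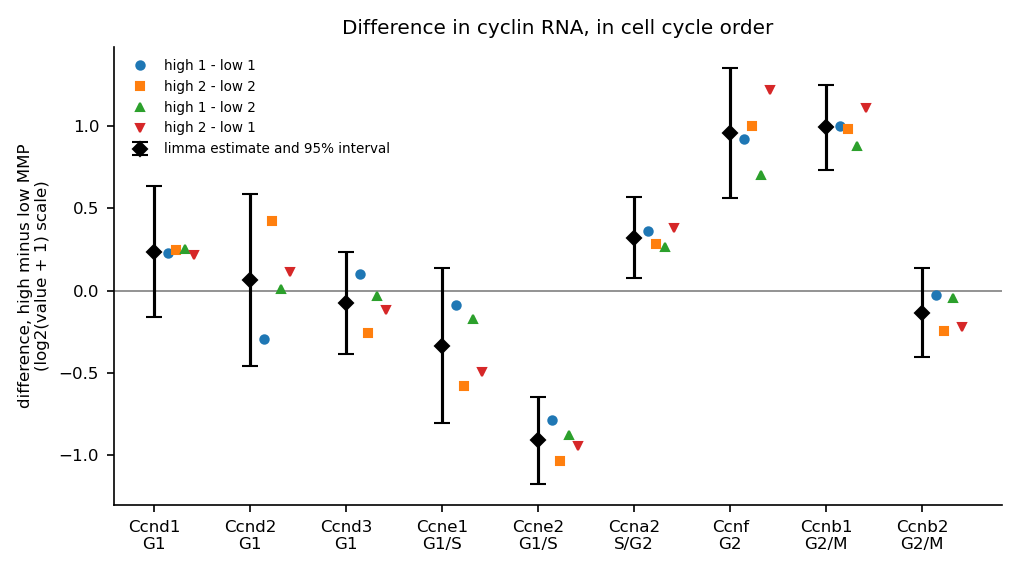
Difference between high and low MMP cells on the log2(value + 1) scale (vertical axis) for the cyclins in cell cycle order (horizontal axis). Black diamonds and bars are the limma estimate and its 95% interval, and coloured symbols are the 4 differences between single libraries; all 4 lay above 0 for *Ccnd1*, *Ccna2*, *Ccnf* and *Ccnb1*, below 0 for *Ccne1*, *Ccne2* and *Ccnb2*, and on both sides for *Ccnd2* and *Ccnd3*.

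Promoters are shown for *Ccnb1*, *Ccnb2* and *Ccnf*, as the mitotic cyclins and the cyclin whose difference was closest to that of *Ccnb1*. RefSeq sequences on GRCm38.p6, 250 bases before to 50 after a start site, were matched by symbol for 5 of the 9 cyclins. They are of the reference strain, not of 4T1. Capitals mark the CCAAT box (CCAAT), which NF-Y binds, and the CHR element (TTTGAA), which the MuvB complexes bind in many mitotic genes. Both strands were searched, also for the E2F sites TTTCCCGC or TTTGGCGC or TTTCGCGC or TTTGCCGC.
Ccnb1, chr13:100786437-100786736, minus strand: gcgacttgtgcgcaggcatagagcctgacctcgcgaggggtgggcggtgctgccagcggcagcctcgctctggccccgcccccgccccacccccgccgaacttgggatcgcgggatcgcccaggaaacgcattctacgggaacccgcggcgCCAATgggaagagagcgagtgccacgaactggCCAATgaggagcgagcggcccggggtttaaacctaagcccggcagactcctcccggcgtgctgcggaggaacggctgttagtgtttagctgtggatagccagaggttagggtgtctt
Ccnb2, chr9:70421505-70421804, minus strand: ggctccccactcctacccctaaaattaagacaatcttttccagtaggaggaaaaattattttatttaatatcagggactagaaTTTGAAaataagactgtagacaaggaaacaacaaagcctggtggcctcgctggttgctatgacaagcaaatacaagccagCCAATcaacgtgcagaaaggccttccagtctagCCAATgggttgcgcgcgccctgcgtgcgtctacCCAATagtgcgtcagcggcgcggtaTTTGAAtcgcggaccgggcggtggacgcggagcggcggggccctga
Ccnf, chr17:24251360-24251659, minus strand: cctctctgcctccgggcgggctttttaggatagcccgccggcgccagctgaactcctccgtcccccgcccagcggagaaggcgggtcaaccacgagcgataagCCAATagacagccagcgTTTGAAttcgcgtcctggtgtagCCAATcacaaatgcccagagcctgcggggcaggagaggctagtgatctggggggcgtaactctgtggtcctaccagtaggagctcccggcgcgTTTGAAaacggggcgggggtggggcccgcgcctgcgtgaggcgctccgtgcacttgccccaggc
*Ccnb1* held 2 CCAAT boxes, starting 99 and 67 bases before the start site, and no match to TTTGAA. These were the only letters searched for the CHR element, so other forms of it in *Ccnb1* would be missed. *Ccnb2* held 3 CCAAT boxes, at 87, 54 and 21 bases before the start, and 2 CHR matches, at 167 bases before it and at base 5 of the transcript. *Ccnf* held 2 of each, with CCAAT at 147 and 107 and CHR at 130 and 14 bases before the start. No matches overlapped. Of all 32851 such windows, 37.4% held a CCAAT box, 17.9% a CHR match and 2.26% an E2F match, while at least 2 CCAAT boxes were in 11.7% and at least 2 CHR matches in 2.31%. The *Ccne1* window held none of the 3 motifs, and of the windows of *Ccnd3*, which has 2, 1 held a CCAAT box. No E2F match was found in these 6 windows. These are letter matches only.

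Ratios of cyclins within a library do not depend on the factor by which that library was scaled. *Ccnb1* had 9.73 and 11.7 times the reads of *Ccne2* in high MMP cells and 2.82 and 2.89 times in low MMP cells, a difference of 1.90 in the log2 ratio. As with *Ccnb2*, this separation follows from the values of the single genes, 1 higher and 1 lower, and is no further result. *Ccnd1* had 91.2 and 101 times the reads of *Ccne2* in high and 45.1 and 41.6 times in low MMP cells. The ratio of *Ccnb1* to its kinase *Cdk1* overlapped between the groups instead, at 0.676 and 0.802 against 0.738 and 0.628.

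**Figure D3:**
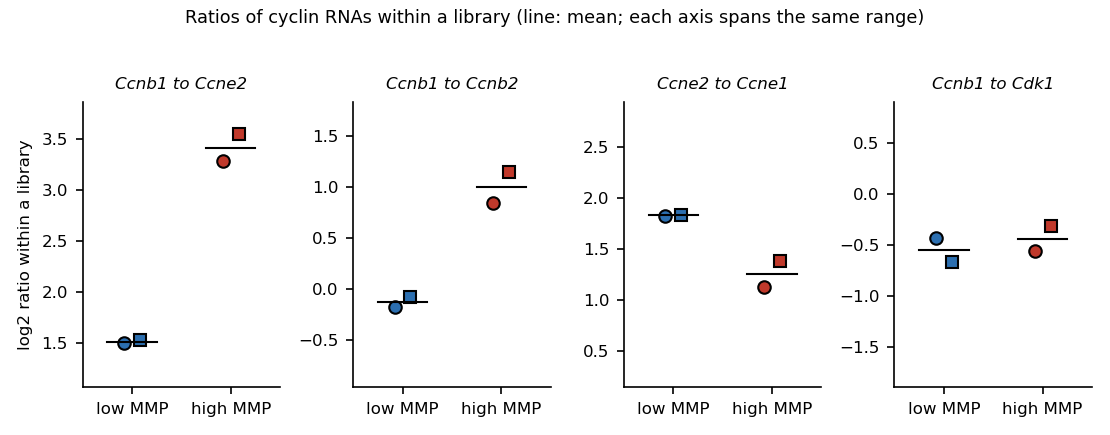
Log2 ratio of normalized reads between a pair of genes within each library (vertical axes, all spanning the same range) in low (blue) and high (red) MMP cells; lines are means, circles replicate 1 and squares replicate 2. The *Ccnb1* to *Ccne2* ratio averaged 3.41 in high and 1.51 in low MMP cells and the *Ccnb1* to *Ccnb2* ratio 0.99 and -0.13, whereas the *Ccnb1* to *Cdk1* ratio overlapped.

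To compare levels between the genes, reads were divided by the length of all annotated exons of each gene and given as RPKM, reads scaled for gene length and library depth. Isoforms with fewer exons would make this level too low. *Ccnd1* was the most abundant cyclin by far, at 446 to 533 over the 4 libraries, and made up 94.1% to 95.5% of the D-type level. *Ccnb2* (85.1 to 101) and *Ccna2* (69.6 to 90.7) followed, with ranges that overlapped. *Ccnb1* was next at 63.4 and 68.3 in high and 31.7 and 34.6 in low MMP cells, then *Ccnd2* at 17.6 to 23.6. *Ccne2* (7.05 to 14.4), *Ccnf* (5.74 to 13.3) and *Ccnd3* (6.29 to 7.51) came after these. *Ccne2* was above *Ccnd3* in each library. *Ccnf* had no fixed place, since it was below both of them in the low and above both in the high MMP libraries. *Ccne1* was the lowest at 3.54 to 5.29.

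Set against the summed level of the 9 cyclins, E-type cyclins took 1.51% and 1.28% in high MMP cells and 2.62% and 2.79% in low MMP cells. Cyclin F took 1.31% and 1.61% against 0.811% and 0.945%, and cyclin A2 10.8% and 11.0% against 9.83% and 10.6%. The B-type share overlapped, at 19.3% and 18.6% against 18.5% and 19.1%, as did the D-type share, at 67.1% and 67.6% against 68.2% and 66.6%. These shares depend on the exon length by which reads were divided, 4217 bases for *Ccnb1* and 1531 for *Ccnb2*. Within the B-type level, *Ccnb1* made up 39.4% and 44.5% in high and 24.2% and 25.6% in low MMP cells.

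**Figure D4:**
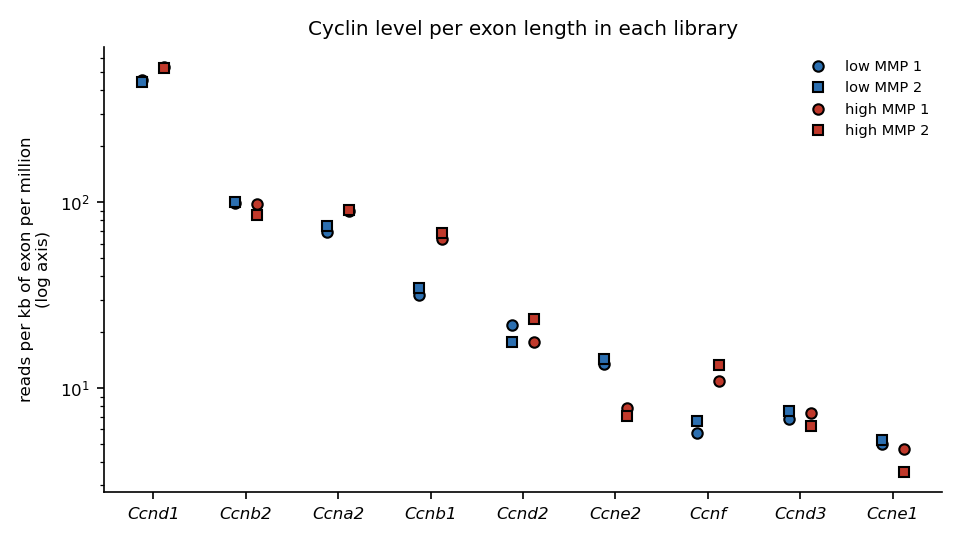
Level of each cyclin as RPKM (vertical log axis), ordered by the mean of the 4 libraries. Blue is low and red high MMP, circles are replicate 1 and squares replicate 2; *Ccnd1* lay at 446 to 533 and *Ccne1* at 3.54 to 5.29, and *Ccne2* and *Ccnf* changed places between the groups.

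The partners and regulators of these cyclins were read from lists of their own. None of their genes had a limma adjusted p under 0.05. Among the 9 genes of kinases, Cks subunits and the CDK-activating complex, 2 were higher (*Cdk1* and *Cks2*) and 1 lower (*Cdk2*) in high MMP cells at an unadjusted limma p under 0.05 (3.95% and 6.01% of all genes), and the median difference was 0.08 (-0.04 over all genes). *Cdk1*, the mitotic kinase, had 7920 and 7188 normalized reads in high and 3627 and 4642 in low MMP libraries. Its difference of 0.88 (SE 0.15, limma adjusted p 0.472) had an adjusted p of 0.00370 in edgeR with the replicate block and of 1.39e-05 in DESeq2. *Cdk2*, the kinase of cyclin E, was at 1268 and 1454 in high against 1923 and 1946 in low MMP libraries, a difference of -0.51 (SE 0.10, limma adjusted p 0.472) that neither of these called. The G1 kinases differed little, with -0.04 for *Cdk4* (SE 0.13) and 0.13 for *Cdk6* (SE 0.08).

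Of 7 CDK inhibitors 5 had values, and 2 of these, *Cdkn2c* and *Cdkn2d* of the INK4 family that blocks CDK4 and CDK6, were higher in high MMP cells at an unadjusted limma p under 0.05, as were 3.95% of all genes. The list's median difference was 0.17. *Cdkn2d* had the highest difference, 0.82 (SE 0.12), at 389 and 362 normalized reads in high and 199 and 226 in low MMP libraries, with a limma adjusted p of 0.472 (edgeR with the replicate block 0.00662, DESeq2 0.00946). *Cdkn2c* differed by 0.49 (SE 0.07, limma adjusted p 0.472, edgeR with the replicate block 0.423, DESeq2 0.0412). *Cdkn1b* had the lowest of those averaging 10 or more, at 0.14 (SE 0.07). *Cdkn2c* was named after its values were seen, as were *Cks2*, *Fzr1*, *E2f1* and *Mybl2*.

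Cyclins are destroyed by ubiquitin ligases such as the SCF ligases and the anaphase-promoting complex. The list of 26 genes of cyclin turnover, which was not limited to subunits of these (it also held *Cul3*, *Ambra1* and *Fbxo5*), had a median difference of 0.03. At an unadjusted limma p under 0.05, 2 of them (*Ube2c* and *Fzr1*) were higher and 1 (*Cul1*) was lower in high MMP cells, against 3.95% and 6.01% of all genes. *Ube2c*, which starts the ubiquitin chains on mitotic cyclins, had the highest difference at 1.30 (SE 0.09, limma adjusted p 0.472, edgeR with the replicate block 2.05e-07, DESeq2 1.57e-15). *Fzr1*, which directs that complex in G1, differed by 0.86 (SE 0.14, limma adjusted p 0.472, edgeR with the replicate block 0.00174, DESeq2 3.47e-05), and *Cul1*, the SCF scaffold, had the lowest difference at -0.23 (SE 0.08).

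Among 24 regulators of cyclin transcription, 23 had values and the median difference was -0.04. None was higher and 3 were lower in high MMP cells at an unadjusted limma p under 0.05 (3.95% and 6.01% of all genes), namely *E2f1*, *E2f2* and *Mybl2*. *E2f2*, an activator of S-phase genes, had the lowest difference at -0.77 (SE 0.10, limma adjusted p 0.472, edgeR with the replicate block 0.0329, DESeq2 0.0283), and *E2f5* the highest at 0.21 (SE 0.08). *E2f1* differed by -0.71 (SE 0.12, limma adjusted p 0.472, edgeR with the replicate block 0.0511, DESeq2 0.0191), and *Mybl2* was called by none of these. Cyclins that serve transcription and other processes were the fifth list. Of 18, 16 had values, 0 passed an unadjusted limma p of 0.05 (3.95% of all genes did higher and 6.01% lower), and the median difference was -0.04. Their extremes were 0.21 for *Ccng1* (SE 0.10) and -0.49 for *Ccnl2* (SE 0.21).

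**Figure D5:**
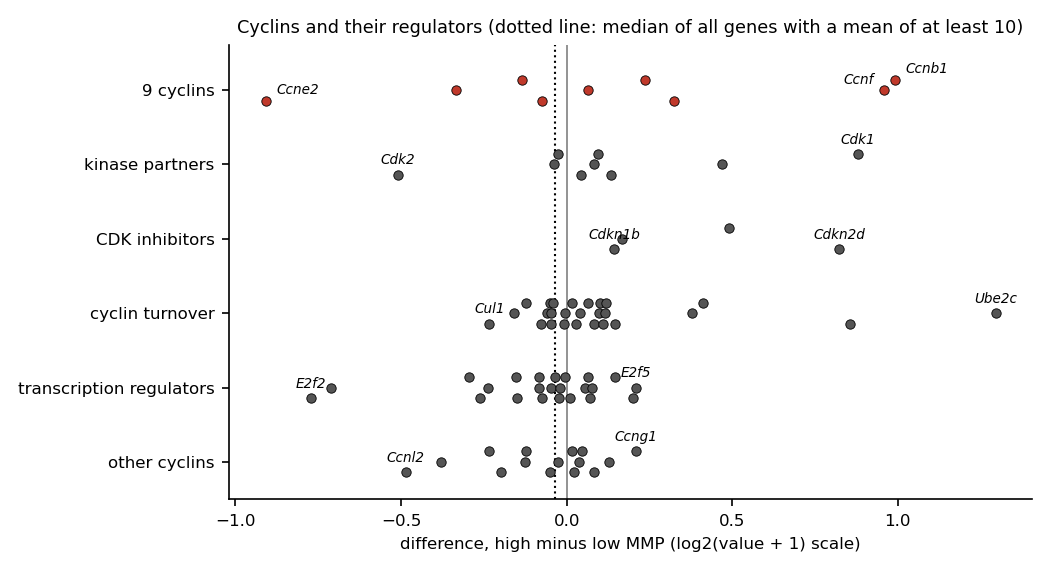
Difference between high and low MMP cells on the log2(value + 1) scale (horizontal axis) for the 9 cyclins (red) and for the genes of 5 lists that averaged 10 or more (grey, 1 point per gene). The dotted line is the median of all genes averaging that much, at -0.03; *Ccnb1*, *Ccnf*, *Cdk1*, *Cdkn2d* and *Ube2c* lie at the right and *Ccne2*, *E2f2* and *Cdk2* at the left.

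Cyclin profiles were also set beside those of other genes. The most similar profiles over the 4 libraries were sought among 9998 other genes averaging 100 or more, by the root mean square difference of centred log2 values. Nearest to *Ccnb1* were *Arl6ip1* (0.017) and *Top2a* (0.024), a topoisomerase that untangles chromosomes. *Ccnf* was followed most closely by *Cenpl* (0.045) and *Cdc25b* (0.047), a phosphatase that activates CDK1. For *Ccne2* they were *Dancr* (0.053) and *Cdt1* (0.071), a factor that licenses replication origins. *Ccna2* was nearest to *Tgfbr2* (0.016) and *P3h2* (0.017), and *Ccnd1* to *Lrrc49* (0.0072) and *Mcph1* (0.0093). With 4 libraries many genes have a like profile, so these distances are a description.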

How the data were processed

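RNA-sequencing values of 4 libraries of sorted 4T1 cells were used, 2 of high and 2 of low MMP, grouped by their titles. The authors aligned reads to the mouse GRCm38 (mm10) transcriptome with STAR and quantified them per gene, and the submitters' processing notes also name HTSeq. Versions, annotation release, strand setting and multi-mapping rules are not given in the sources used here. The deposited values are a normalized signal, gene reads scaled to a library total of 20000000 and limited to genes detected in at least 2 libraries; 0 columns belonged to no sample. Within a library 100.0% of values were whole multiples of 1 step (tolerance 0.05), which recovered whole reads. Identifiers of 19993 of 20197 genes matched GENCODE M21.

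Values were tested as log2(value + 1), which understates changes of low genes, with limma 3.58.1 (trend on the mean) in R 4.3.3 over all genes, with Benjamini-Hochberg adjustment. Alternatives were edgeR 4.0.16 and DESeq2 1.42.0 on recovered reads, other pseudocounts, filters and scalings, the replicate block and leaving out libraries. The 9 cyclins and the lists were chosen with earlier results of these data known. Named genes were the cyclins, *Cdk1*, *Cdk2*, *Cdk4*, *Cdk6*, the extremes of each list (mean of 10 or more), and the 2 nearest profiles of the cyclin with the most normalized reads (not per length) in each class. Handling stress was a list of 11 immediate-early and heat-shock genes.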

Additional observations from a re-analysis of the deposited data

How the results depend on the processing

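The 9 cyclins kept the direction of their difference under each pseudocount, filter, scaling, variance model and test. The number of genes called was 0 in limma under each of these. In the main fit the smallest limma adjusted p was 0.472, while 2011 genes had an unadjusted p under 0.05. With only genes averaging 10 or more, the limma adjusted p was 0.0960 for *Ccnb1* and *Ccne2* and 0.118 for *Ccnf*. The number of genes called was 106 in edgeR with the replicate block and 118 in DESeq2, and the number of cyclins called was 3 in each. The cause was not tested. The calls were *Ccne2* at -0.87 in both, *Ccnf* at 1.00 in both and *Ccnb1* at 1.03 in both. Same-numbered libraries did not deviate together, with a correlation of -0.421 across genes, and the labels give no shared culture or sort, so the fit without a block stayed the main one; limma with the replicate block called 0 genes. With crossed numbers as the block, chosen after seeing the data, limma called 0 and edgeR called 733 genes, 3 of them cyclins.

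With 1 library left out, the lone library of a group is assumed to vary like the others. limma then called 0 genes, as it did with all libraries. DESeq2, run this way after seeing the data, called 13 genes without low MMP replicate 1, 23 without low MMP replicate 2, 196 without high MMP replicate 1 and 404 without high MMP replicate 2, so that counts ranged from 0 to 404 genes and from 0 to 3 cyclins. edgeR with the replicate block was not run this way. Differences ranged from 0.22 to 0.25 for *Ccnd1*, -0.14 to 0.27 for *Ccnd2*, -0.19 to 0.035 for *Ccnd3*, -0.54 to -0.13 for *Ccne1*, -0.99 to -0.83 for *Ccne2*, 0.27 to 0.37 for *Ccna2*, 0.81 to 1.11 for *Ccnf*, 0.93 to 1.05 for *Ccnb1* and -0.23 to -0.04 for *Ccnb2*. *Ccnd2* turned to -0.14 without high MMP replicate 2 and to -0.09 without low MMP replicate 2, and *Ccnd3* to 0.035 without high MMP replicate 2. The log2 ratio of *Ccnb1* to *Ccne2* ranged from 1.77 to 2.03. With 2 libraries per group, the width of the intervals limits what small differences can be seen, as for the D-type cyclins.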
